A study of Mus musculus with 6 samples.

Results

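The accessibility of chromatin around 9 genes of the JAK-STAT pathway was examined in MLL-ENL–transformed cells that had or lacked Cebpa and Cebpb, the genes of C/EBPα and C/EBPβ. The genes were Jak1 and Jak2, which encode tyrosine kinases, Stat3, Stat4, Stat5a and Stat5b, which encode transcription factors, and Socs2, Socs3 and Cish, which encode inhibitors. They were taken as a named set of genes, and a region was given to a gene if it overlapped the gene body in the GENCODE M21 annotation (mm10) or the 50 kb on either side. Of the 10016 regions listed as different between the groups, 10 belonged to 5 of the 9 genes, where 47.5% of all protein-coding genes had a listed region. Within these windows, the listed regions of both kinases were more open in the cells that lacked Cebpa and Cebpb, those of the inhibitors went in both directions, and the 4 STAT genes had none. Over the whole list, 60.3% of regions were more open in those cells, and a window without a listed region was the commonest outcome for a gene.

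ATAC-seq counts the insertions of the Tn5 transposase into DNA, which occur mostly in open chromatin. The values came from 4 libraries, 2 per group, each made from 50000 sorted cells. All cells came from the fetal liver of mouse embryos, immortalized with a retrovirus carrying the MLL-ENL fusion oncogene, and all were kept in medium with mouse interleukin 3 (IL-3) at 10 ng/ml. The WT group, wild-type in its labels, retained Cebpa and Cebpb, which were floxed according to the methods of the study, and its labels name no vector. The dKO group lacked Cebpa and Cebpb after treatment with Cre recombinase and carried a GFP vector. Other genes of the C/EBP family were not deleted. According to the study, C/EBPε protein was strong in every dKO clone it recovered, and expression was not measured in the data used here. The methods describe dKO lines as clones that outlived the loss of both genes, so that genotype, vector and the choice of clones cannot be told apart. Which clones were used for ATAC-seq, and whether replicates were separate clones or cultures, is not given in the sources used here. A further group, dKO cells expressing rat C/EBPβ isoform LAP*, was not analysed here.

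The pathway is a short route from a cytokine receptor to the genome. Binding of a cytokine brings receptor-bound JAK kinases together, and these phosphorylate STAT proteins, which then form dimers, enter the nucleus and bind DNA. SOCS proteins and CISH are made in response to STAT activity and shut the route down again, by blocking kinases or receptors or by marking them for degradation. The receptor for IL-3, the cytokine in the medium of these cells, signals mainly through JAK2 and STAT5. JAK1 and STAT3 serve receptors such as that of interleukin 6. STAT4 is best known for its role in lymphoid cells.

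For each region, the deposited table gives the authors' mean of normalized reads on a log2 scale for WT and for dKO, with no value per library. The means therefore carry no error, and a region counts as changed because it passed the authors' own comparison at a corrected P-value of 0.05. The change is the dKO mean minus the WT mean. The deletions were visible at the deleted genes. The region over Cebpa went from 9.99 in WT to -0.15 in dKO, and both regions over Cebpb were lower, at 8.60 and 3.37 for one and 7.38 and -0.15 for the other. The value of -0.15 was the lowest listed in either group and was taken as 1 read per library, which puts 3 reads per library at 1.43. The lowest group mean among the 10 regions was 3.77, or 13.6 normalized reads per library, so none of the 10 was at this floor.

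A listed region within the window was present for 5 of the 9 genes, against 47.5% of 21728 protein-coding genes searched in the same way. Higher regions only were found at 2 genes (Jak1 and Jak2; 23.8% of protein-coding genes), lower regions only at 1 gene (Cish; 15.6%) and both at 2 genes (Socs2 and Socs3; 8.06%). Of the 10 regions, 6 were higher in dKO, against 60.3% of all listed regions, and 4 were lower, against 39.7%. Both shares were near those of the whole list. The list itself was shifted, with a median change of 0.98, and relative to that median 4 of the 10 regions were higher and 6 lower, since the Jak2 region 10.1 kb upstream and the Socs2 region 25.3 kb upstream changed by less. Windows spanned 104.0 kb at Socs3 to 220.0 kb at Stat4, and 117.4 kb for the median protein-coding gene. The STAT genes had windows of 125.8 kb to 220.0 kb and no listed region, and the short genes Cish and Socs3 had 1 and 3. Over all protein-coding genes the median was 0 listed regions per window and the mean 0.886, and 9.78% of genes had 3 or more, as Jak2 and Socs3 did.

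**Figure D1:**
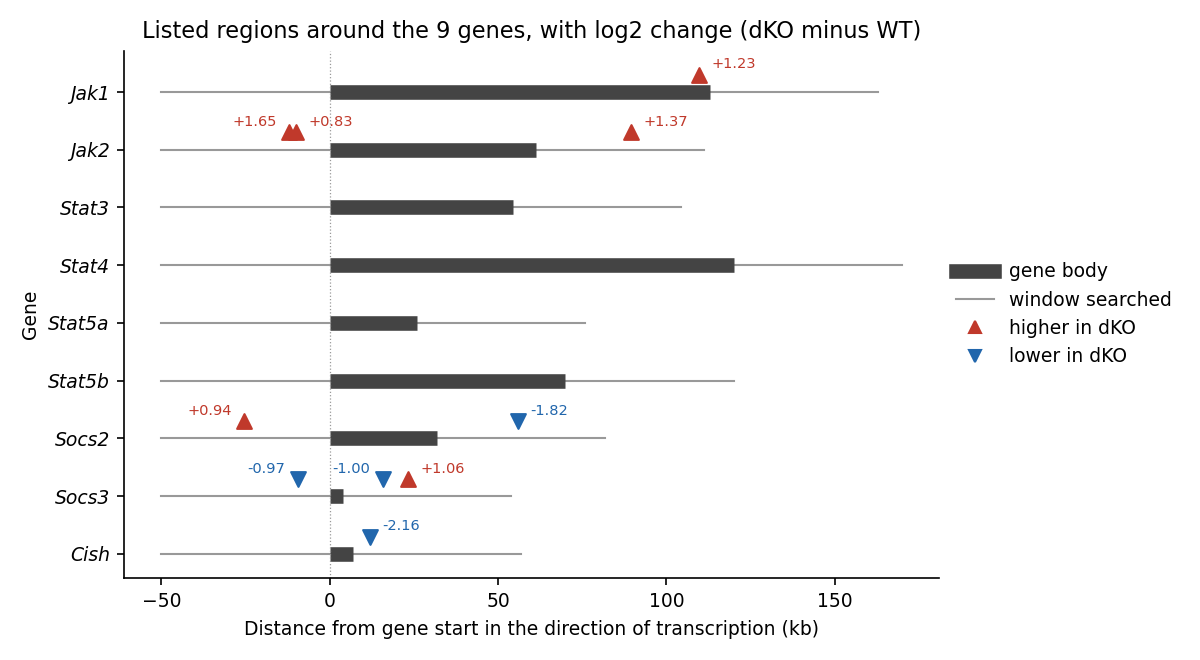
Positions of listed regions along the 9 genes, as distance in kb from the gene start in the direction of transcription. Dark bars are gene bodies, thin lines the windows searched, red upward triangles regions higher in dKO and blue downward triangles regions lower in dKO, each with its log2 change. All 4 regions of Jak1 and Jak2 are higher (3 of 4 relative to the median of all listed regions), and the 3 inhibitor genes hold 2 higher and 4 lower regions (1 and 5 relative to that median), where 60.3% of all listed regions are higher and 39.7% lower. The 4 STAT genes have none, and 47.5% of protein-coding genes have at least 1.

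The DNA of 6 of these regions is shown, because it holds matches to transcription factor motifs that are described with the results. The first 2 are the regions with the largest falls, and the others are the 4 regions of the kinase genes, among them the largest rise. By the rule for sequences, the regions at Cish and Jak1, and those of Jak2 at 12.1 kb and 89.4 kb, were shown. The other 2 were added after their values had been seen. The higher region of Socs3 is not shown. It holds a PU.1 match in its central 200 bases and STAT matches only outside them. Each line gives the central 200 bases, 5′ to 3′, read from RefSeq GRCm38.p6, which has the same chromosome sequences as mm10. Capitals mark matches on either strand to C/EBP (TTACNNAA or TTGCNNAA), STAT (TTCNNNGAA), AP-1 (TGAGTCA or TGACTCA), PU.1 (GAGGAAGT) and RUNX (AACCACA).
Cish, 12.0 kb downstream of the start, chr9:107307929-107308128, plus strand: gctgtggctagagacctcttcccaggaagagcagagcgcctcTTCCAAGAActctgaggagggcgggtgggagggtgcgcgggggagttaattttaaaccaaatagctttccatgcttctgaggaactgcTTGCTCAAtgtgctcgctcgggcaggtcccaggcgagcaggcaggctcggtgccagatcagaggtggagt
Socs2, 55.8 kb downstream of the start, chr10:95361274-95361473, plus strand: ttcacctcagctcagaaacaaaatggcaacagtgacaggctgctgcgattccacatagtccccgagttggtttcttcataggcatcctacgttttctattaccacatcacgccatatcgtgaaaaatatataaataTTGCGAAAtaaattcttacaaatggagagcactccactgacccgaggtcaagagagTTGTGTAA
Jak2, 12.1 kb upstream of the start, chr19:29239626-29239825, plus strand: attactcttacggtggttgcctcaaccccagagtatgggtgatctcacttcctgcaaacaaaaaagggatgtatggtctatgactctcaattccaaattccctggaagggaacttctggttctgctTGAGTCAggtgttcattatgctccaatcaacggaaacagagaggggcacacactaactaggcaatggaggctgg
Jak2, 10.1 kb upstream of the start, chr19:29241609-29241808, plus strand: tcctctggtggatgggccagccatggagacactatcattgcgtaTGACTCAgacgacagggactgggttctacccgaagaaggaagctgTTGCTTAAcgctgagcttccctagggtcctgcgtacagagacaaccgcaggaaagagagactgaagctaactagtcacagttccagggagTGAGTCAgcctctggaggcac
Jak2, 89.4 kb downstream of the start, chr19:29341142-29341341, plus strand: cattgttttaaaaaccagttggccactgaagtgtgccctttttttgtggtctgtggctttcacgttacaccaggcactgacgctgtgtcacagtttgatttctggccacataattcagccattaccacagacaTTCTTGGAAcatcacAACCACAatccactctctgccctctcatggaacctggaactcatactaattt
Jak1, 109.5 kb downstream of the start, chr4:101155643-101155842, plus strand: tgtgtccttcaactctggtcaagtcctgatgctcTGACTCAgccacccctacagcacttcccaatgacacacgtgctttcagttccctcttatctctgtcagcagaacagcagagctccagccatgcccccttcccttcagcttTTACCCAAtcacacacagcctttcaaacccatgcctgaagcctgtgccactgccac

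Jak2 encodes the kinase that binds the common chain of the IL-3 receptor. It lies on chromosome 19 from 29251828 to 29313080 and had 3 regions, all higher in dKO. A region 12.1 kb upstream of the start (29239601 to 29239851) rose from 3.77 in WT to 5.42 in dKO, or from 13.6 to 42.8 normalized reads. This log2 change of 1.65 was the largest rise among the 10 regions. A second region 10.1 kb upstream (29241464 to 29241954) rose from 7.39 to 8.22, or from 168 to 298 normalized reads, a log2 change of 0.83 that lies below the median of all listed regions. It was the most accessible of the 10 per base, with 34.2 reads per 100 bases in WT and 60.7 in dKO, and 97.8% of all listed regions had a lower level per base in their higher group. The third region (29341063 to 29341422) lay 28.0 kb past the end of the gene, where the closest start site was that of Rln1, a relaxin gene, and it rose from 4.74 to 6.11, or from 26.7 to 69.1 normalized reads. The surroundings of Jak2 went the same way, with 20 of 25 listed regions beyond the window and within 1 Mb higher in dKO, and 72.4% of the listed regions of chromosome 19 were higher. The part of this regional pattern in the rises at Jak2 was not tested.

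As the sequences above show, the upstream pair of Jak2 regions held AP-1 matches. The region at 12.1 kb had 1, and that at 10.1 kb had 2 together with a C/EBP match, TTGCTTAA. The region past the gene held a STAT match, TTCTTGGAA, and a RUNX match. AP-1 is a family of dimers of FOS and JUN proteins, and RUNX factors direct the formation of blood cells. A match describes the letters only, and binding was not measured.

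Jak1 encodes the kinase used by receptors for interferons and for cytokines of the interleukin 6 family. Its body on chromosome 4 (101152367 to 101265282, minus strand) contained the only region of the 10 that lay inside a gene of the set. The region (101155536 to 101155950) was in an intron close to the 3′ end, 109.5 kb downstream of the start and 417 bp from the start of a noncoding Jak1 transcript. It rose from 4.58 to 5.81, or from 23.9 to 56.1 normalized reads, a log2 change of 1.23. The sequence held an AP-1 match and a C/EBP match, TTACCCAA. The surroundings went the other way, since all 11 listed regions beyond the window and within 1 Mb of the gene were lower in dKO, and 46.5% of the listed regions of chromosome 4 were higher.

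The 4 STAT genes had no listed change. Stat5a, Stat5b and Stat3 are neighbors on chromosome 11 (100780731 to 100939540), and STAT5A and STAT5B are closely related proteins that carry much of the IL-3 signal. The 3 genes lay in one stretch of 837 kb without a listed region. At its ends were a region near Nt5c3b, which fell from 6.43 to 5.19, and a region near Coa3, which rose from 5.52 to 7.21. The nearest listed region was 338 kb from the body of Stat3, 339 kb from Stat5b and 393 kb from Stat5a. Of all protein-coding genes, 14.1% were at least as far from a listed region as Stat3, and the median was 56 kb.

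Stat4, on chromosome 1 (51987148 to 52107189), has the longest body of the 4 and had no listed region in its window of 220.0 kb. The table holds only regions that passed, so accessibility at the STAT genes could have differed by less than the comparison could call, or not at all. Their levels were not part of the table.

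Cish encodes an inhibitor that binds activated cytokine receptors and is induced by STAT5. The gene (chromosome 9, 107296026 to 107302784) had 1 region, located 5.0 kb past its end (107307820 to 107308239). The region fell from 6.76 in WT to 4.60 in dKO, or from 108 to 24.3 normalized reads. This was the largest fall among the 10 regions, with a log2 change of -2.16 or 4.47-fold, and exceeded 63.1% of all lower regions in size. The closest protein-coding start site was that of Cish itself, and that of the antisense gene Gm17041 was nearer at 5982 bp. Beyond the window and within 1 Mb, 5 listed regions were higher and 5 lower, and 55.8% of the listed regions of chromosome 9 were higher. The sequence held both a STAT match (TTCCAAGAA) and a C/EBP match (TTGCTCAA), on either side of its center and without overlap.

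Socs2 encodes an inhibitor of growth hormone and STAT5 signaling. It lies on chromosome 10 (95385362 to 95417180, minus strand) and had a region in each direction. The region past the gene, 55.8 kb downstream of the start (95361152 to 95361596), fell from 6.99 to 5.17, or from 127 to 36.0 normalized reads. The region 25.3 kb upstream (95442326 to 95442713) rose from 5.47 to 6.41, or from 44.3 to 85.0 normalized reads, by 0.94 on the log2 scale, which is below the median of all listed regions. The lower region had a log2 change of -1.82 and lay 2 bp from a start site of the long noncoding RNA gene 2310039L15Rik, in an intron of it. It held 2 C/EBP matches, TTGCGAAA and TTGTGTAA (the latter in reverse orientation), whereas the higher region held none of the 5 motifs.

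The fall at Socs2 stood among rises. Of 26 listed regions beyond the window and within 1 Mb of the gene, 24 were higher in dKO and 2 lower, and 82.0% of the listed regions of chromosome 10 were higher. The part of this regional pattern in the rise at Socs2 was not tested.

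Socs3 encodes an inhibitor of the receptors for interleukin 6 and G-CSF and of the JAK kinases bound to them. The gene (chromosome 11, 117966079 to 117970047, minus strand) had 3 regions, 2 lower and 1 higher. A region 9.6 kb upstream (117979338 to 117979883) fell from 7.25 to 6.28, and a region 15.8 kb downstream of the start (117954052 to 117954498) fell from 7.11 to 6.11, or from 152 to 77.7 and from 138 to 69.1 normalized reads. The changes of -0.97 and -1.0 were small for lower regions, 8.79% and 9.67% of which changed less. A region 23.2 kb downstream (117946384 to 117947223), 840 bp wide and thus the widest of the 10, rose from 5.25 to 6.31, or from 38.1 to 79.3 normalized reads.

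Neither lower region of Socs3 had a match in its central 200 bases, and the upstream one had a C/EBP match (TTGAGCAA) outside them. The higher region held a PU.1 match in the center and 2 STAT matches, TTCTAGGAA and TTCGAGGAA, outside it. PU.1 is a transcription factor that myeloid cells require. The surroundings were mostly lower, with 13 of 17 listed regions beyond the window and within 1 Mb, whereas 62.6% of the listed regions of chromosome 11 were higher. The start site closest to the upstream region was that of Pgs1.

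**Figure D2:**
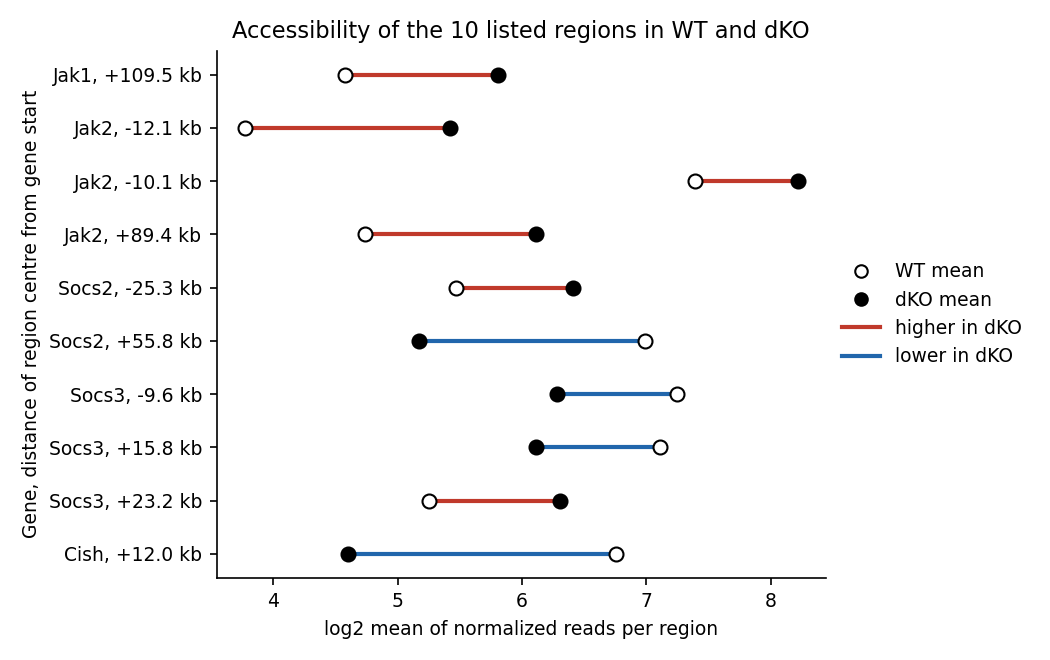
Log2 mean of normalized reads in WT (open circles) and dKO (filled circles) for each of the 10 regions, labelled by gene and by distance from the gene start. Red lines join regions higher in dKO and blue lines regions lower in dKO. Each point is the mean of 2 libraries and has no error bar, since the table gives none. The longest lines are those of Cish, Socs2 at +55.8 kb and Jak2 at -12.1 kb.

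Across the set, changes were moderate for this list. The 6 higher regions changed by 0.83 to 1.65 on the log2 scale with a median of 1.14, where the median of all higher regions was 1.58. The 4 lower regions changed by -0.97 to -2.16 with a median of -1.41, where that of all lower regions was -1.85. Of the 10, 7 changed 2-fold or more, as did 85.5% of all listed regions. Changes of the whole list reached 6.82 and -10.14, the latter over the deleted gene Cebpa. The dKO mean there was the lowest listed, so this fall is a bound and not a measured ratio.

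**Figure D3:**
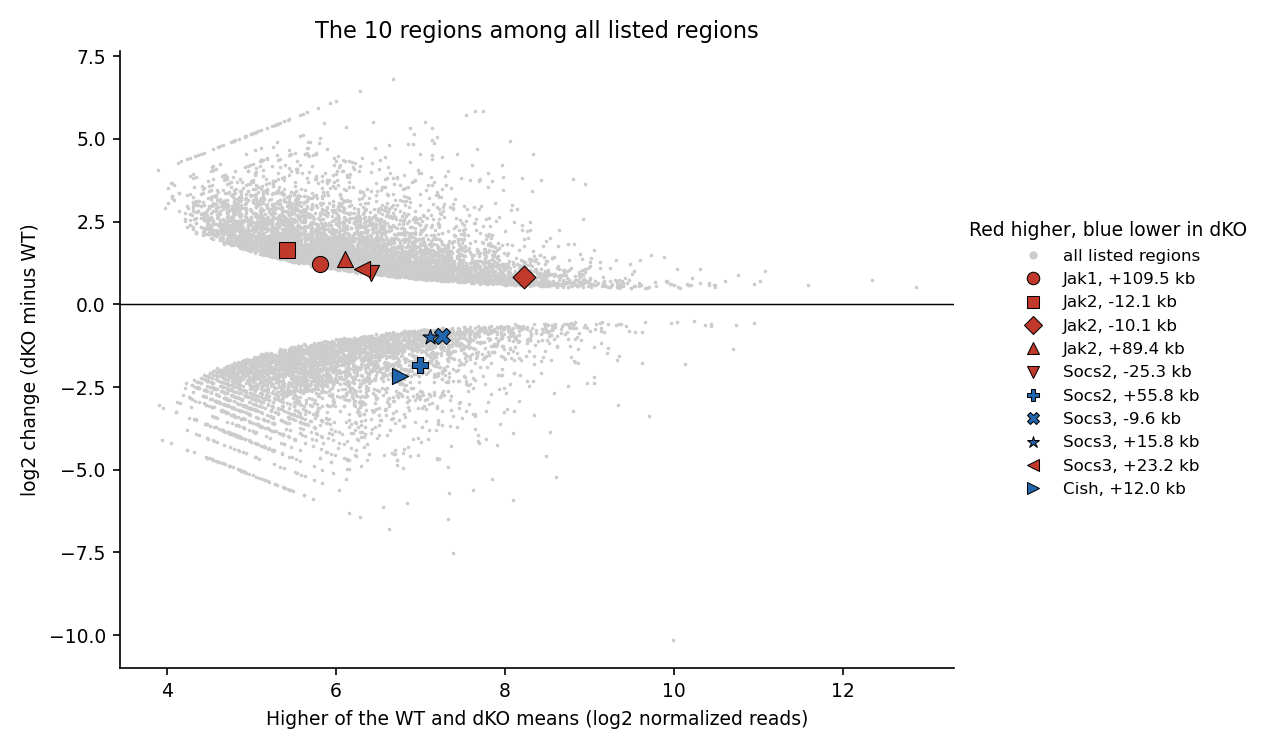
Log2 change (dKO minus WT, vertical axis) against the higher of the WT and dKO log2 means (horizontal axis) for all 10016 listed regions in gray and the 10 regions at the JAK and SOCS genes as colored symbols. The 10 symbols lie between -2.16 and 1.65, within the range of the gray points. The empty band around 0 is there because only regions past the threshold were listed.

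In reads per region, the levels of the 10 regions were above those of the list. Their medians on the log2 scale were 6.12 for WT and 6.11 for dKO, where all listed regions had 5.31 and 5.59. For the 4 lower regions, the median in WT was 7.05, against 5.93 for all lower regions. Per base, the higher Socs3 region exceeded 9.71% of all listed regions in the level of the higher group. The Jak2 region 10.1 kb upstream exceeded 97.8%, and the others lay between. The width of the 10 was 251 to 840 bp with a median of 432 bp, against 400 bp, and their GC content 42.9% to 59.8% with a median of 52.2%, against 49.0%. All 10 were more than 5 kb from the 5′ end of their gene, so no listed change was at the main promoter of any of the 9 genes. Counting start sites of all annotated transcripts of any gene, 2 of 10 were within 1 kb of one, those at Jak1 and at 2310039L15Rik, against 19.1% of all listed regions. The member gene held the nearest protein-coding start site for 8 of 10 regions, the exceptions being the region near Rln1 and that near Pgs1.

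Motif matches were counted in the central 200 bases of the 10 regions and set beside all listed regions. C/EBP matches occurred in 4 of 10 regions, against 28.4% of the whole list, namely in 2 of 4 lower regions (40.7% of all lower regions) and 2 of 6 higher regions (20.2% of all higher regions). AP-1 matches occurred in 3 of 6 higher regions, all at the kinase genes, against 26.6%, and in 0 of 4 lower regions, against 4.65%. STAT matches occurred in 2 of 10, at Cish and past Jak2, against 6.93% of all listed regions, and when 400 bases were searched in 2 of 10 against 13.4%. PU.1 and RUNX matches occurred in 1 region each, against 9.17% and 11.9%. With so few regions these counts are a description.

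The window of 50 kb set which regions were counted. Farthest from its gene among those inside was the region 28.0 kb past Jak2. The nearest outside were a region 61.0 kb from Socs2, in which the change was 1.07, and a region 67.5 kb from Jak2, close to Cd274, which rose from 2.98 to 6.08. Farther out, 90.8 kb from Jak1, a region fell from 6.40 to 5.34, so that with 100 kb Jak1 had a region in each direction.

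Other genes of the pathway were taken from 4 lists with 52 genes in all, and each region was given to the gene with the nearest start. Among the other family members, 6 of 10 genes had a listed region, 4 with higher regions only and 2 with both, where 47.5%, 23.8% and 8.06% of all protein-coding genes did. Of their 16 regions, 13 were higher, against 60.3% of all listed regions. Each region counted for 1 gene of the lists only, whereas the shares over all genes let a region count for every gene whose window it overlapped. The genes of the other JAK kinases, Jak3 and Tyk2, had 1 higher region each, with changes of 1.76 and 1.13, which were nearest to the starts of Fcho1 and Pde4a. Stat2, which carries type I interferon signals, had 3 higher regions, of which one 14.1 kb upstream (nearest to the start of Apon) rose from 2.07 to 6.91 and one next to an internal start of Stat2 rose from 4.51 to 6.07. Stat6, which serves the interleukin 4 receptor, had 5 higher and 2 lower regions. Of these, only the promoter region had Stat6 as its nearest protein-coding start. The Stat6 promoter rose from 7.23 to 7.95, and a region 46.1 kb upstream, nearest to the start of Lrp1, rose from 1.73 to 5.19. Both genes are on chromosome 10, where higher regions prevailed.

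Receptors had listed regions at 16 of 18 genes, against 47.5% of protein-coding genes, with 19 higher and 7 lower regions, against 60.3% and 39.7% of all listed regions. Genes for the α chains of the IL-3 and GM-CSF receptors, Il3ra and Csf2ra, had 1 and 2 higher regions. Csf2rb, the gene of their common chain, had 1 region that rose from 3.49 to 5.12 and 1 that fell from 6.49 to 5.06, nearest to the starts of Tex33 and Tst. Its neighbor Csf2rb2 had 3 higher regions, all nearest to the start of Ncf4. The most evident falls were at Il10ra, which encodes the ligand-binding chain of the interleukin 10 receptor. A region over its promoter fell from 4.96 to 2.17 and a neighboring region within 1 kb of the start fell from 4.77 to 2.03. The promoter of Ifngr2 rose from 8.41 to 8.98, and a region at an internal start of Ifnar2, which encodes a chain of the type I interferon receptor, fell from 6.14 to 4.41. The largest rises were 13.3 kb upstream of Ifngr1, from 2.30 to 5.58, and 40.0 kb upstream of Il4ra, nearest to the start of Nsmce1, from 1.68 to 4.58. Several receptor genes are neighbors with overlapping windows, so their counts depend on which start is nearer.

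Inhibitors and phosphatases had listed regions at 11 of 12 genes, against 47.5% of protein-coding genes. Of the genes, 3 had higher regions only, 4 lower only and 4 both, against 23.8%, 15.6% and 8.06% of protein-coding genes. Their 15 higher and 9 lower regions were near the split of the whole list, 60.3% to 39.7%. The promoter of Pias4, which encodes a SUMO ligase, rose from 9.17 to 9.70. Regions rose from 3.28 to 5.68 at Ptpn6, which encodes the phosphatase SHP-1, and from 1.93 to 4.87 at 4.6 kb upstream of Ptprc, which encodes CD45. Sh2b3, which encodes the JAK2 inhibitor LNK, had 1 lower region, nearest to the start of Cux2, which fell from 4.69 to 2.30. Among target genes of STAT factors, 8 of 12 had listed regions, against 47.5% of protein-coding genes, with 8 higher and 2 lower regions, against 60.3% and 39.7% of all listed regions. A region near the start of Osm, which encodes the cytokine oncostatin M, rose from 7.42 to 8.18. The rises at the promoters of Stat6, Ifngr2 and Pias4 and near Osm were small, at 0.53 to 0.76. For all higher regions the median was 1.58 and the smallest rise 0.49. A region 20.2 kb upstream of Cdkn1a, which encodes the cell cycle inhibitor p21, rose from 1.96 to 5.83, and a region 20.9 kb upstream of Ccnd1, the gene of cyclin D1, fell from 5.04 to 2.75. Median changes of the 4 lists were 1.17, 1.12, 0.64 and 1.16, in the order given here, and 0.98 over all listed regions.

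**Figure D4:**
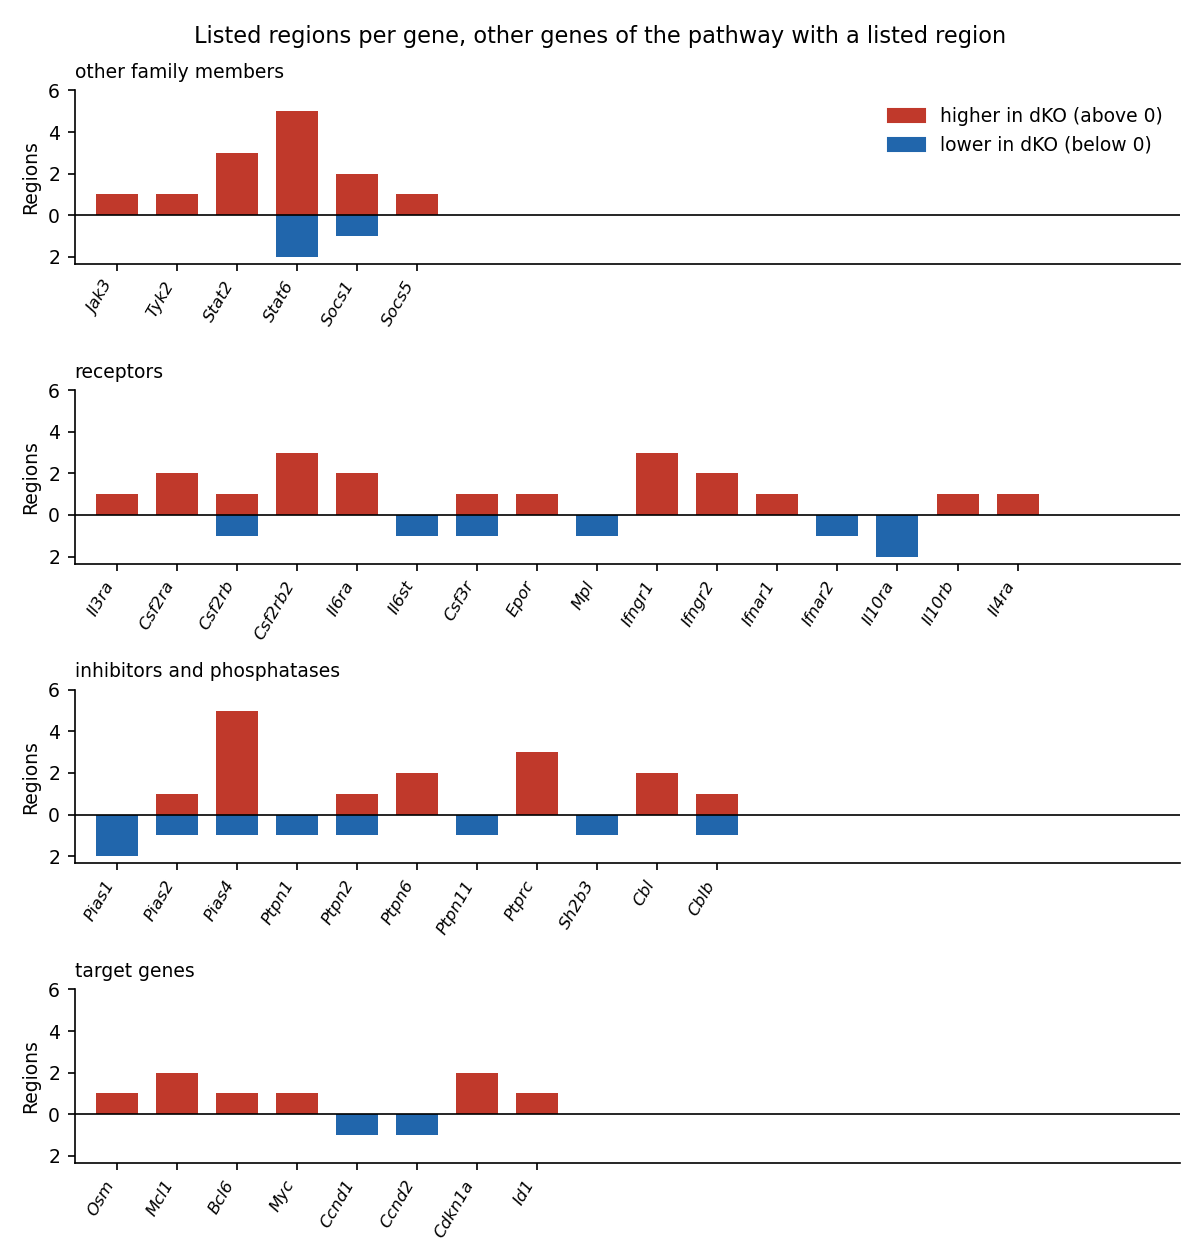
Number of listed regions per gene for the other genes of the pathway that had at least 1, in 4 lists. Red bars above 0 count regions higher in dKO and blue bars below 0 regions lower in dKO. Stat6, with 5 higher and 2 lower regions, and Pias4, with 5 higher and 1 lower, had the most. At both genes, only the region over the promoter had the gene's own start as its nearest protein-coding start.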

How the data were processed

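Per the labels, ATAC-seq was performed on 6 samples in 3 groups of 2. Reads were preprocessed with PiGx, aligned to mm10 with Bowtie 2, used for peak calling with MACS, and compared between groups with DiffBind 2.14.0, as the methods and the submitters' processing notes state. Duplicate handling, the Tn5 offset and the merging of peaks were not given in the sources used here. Duplicates, where kept, would inflate regions with much amplification, and without the offset region edges would move by a few bases. The deposited values used are log2 means of normalized reads per group. The table also holds the authors' fold changes, p-values and corrected p-values, which were not used, except to check that 0 of 10016 regions exceeded 0.05. Both files were identical, so dKO-LAP* was not analysed here. The depth behind each library is not in the table and is unknown here, so no counting interval was computed. The count tests planned for values per library were not run.

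Regions were assigned with Python 3.11.15 and pandas 2.3.3 to GENCODE M21 genes by body and 50 kb, and to the nearer start where windows overlapped. Motifs were searched on both strands of GRCm38.p6 with pysam 0.24.0, in 200 bases about the center. For 11 RefSeq promoters of these genes, the table and the genome agreed in all 11. Assignment and search were tested on simulated data. Each of the 9 genes was named with every region, and of the 4 other lists the regions within 1 kb of a start and the 2 largest changes per list, with Jak3, Tyk2, Il3ra, Csf2ra, Csf2rb, Csf2rb2 and Sh2b3 named after their values were seen. The genes and lists were chosen with earlier results of these data known, so no test was run on them. Alternatives covered window, assignment, minimum change, low values, centering and the width searched.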

Additional observations from a re-analysis of the deposited data

How the results depend on the processing

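No paired analysis was possible because each group is represented by its mean alone. For the same reason no replicate could be left out, and no difference has an error. With a window of 10 kb, 4 regions were left, 2 higher and 2 lower, with a median change of -0.07 against 0.88 with 50 kb. With 100 kb, 10 of 15 regions were higher and the median was 1.06, and Jak1 gained a lower region, so that its higher minus lower regions went from 1 to 0. Regions whose nearest start site of any gene was the member's own numbered 5, of which 1 was lower; the median was 1.06 and 0 genes had more lower than higher regions. Taking protein-coding start sites only left 1 such gene in place of 2, since the upstream Socs3 region was then nearer to Pgs1. A minimum absolute log2 change of 1 gave a median of 1.06, and higher minus lower regions went from 0 to -1 at Socs2, from -1 to 0 at Socs3 and from 3 to 2 at Jak2. Centering on the median of all listed regions gave a median of -0.10 and 4 higher against 6 lower regions, because 0.98 was subtracted from each change. Filters on low values removed no region. The STAT genes had no listed region under the alternatives tried. Windows of up to 100 kb and the filters could not have added one. The nearest listed region was 197.4 kb or more from each STAT gene body. The counts of the 10 regions with each motif stayed within 1.5 times when 400 bases or whole regions were searched. The shares they are set against grew. For STAT the share went from 6.93% to 13.4% and 14.5% of all listed regions. For AP-1 it went from 4.65% to 8.31% and 8.89% of lower regions. For C/EBP it went from 20.2% to 33.4% and 35.3% of higher regions, while 2 of 6 member regions had a match throughout. In lower regions it went from 40.7% to 52.9% and 54.3%, and the members from 2 of 4 to 3 of 4.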

Other observations

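Widening the window to 100 kb added 5 regions at 3 of the genes. Beyond Jak2, a pair of regions nearest to Cd274, which encodes the immune checkpoint ligand PD-L1, rose from 2.98 to 6.08 and from 4.56 to 6.89. These changes of 3.10 and 2.33 exceeded those of the 3 regions within 50 kb of Jak2. Beyond Socs2, 2 regions nearest to Cradd, which encodes a death domain adaptor, rose from 1.38 to 5.58 and from 6.76 to 7.83. The WT mean of 1.38 is below the level of 3 reads per library, so this rise is a bound and not a measured ratio. Upstream of Jak1, a region nearest to Ak4, which encodes an adenylate kinase, fell from 6.40 to 5.34.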
